A study of Mus musculus with 42 samples.

Results

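The 9 genes that mark microglia were followed across the fed and fasted hypothalamus, and all of them were selected by symbol. They were Cx3cr1, P2ry12, Tmem119, Csf1r, Aif1, Trem2, C1qa, C1qb and C1qc. Each was matched through its Ensembl ID in GENCODE release M21, which gave 9 of the 37907 IDs in the deposited table. The rule that selects them uses no expression value, although they were proposed with earlier results of these data known. All 9 were among the 33579 genes that passed a filter of at least 1 RPKM (reads scaled to the length of the gene and the size of the library) in at least 4 libraries.

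RNA-seq was performed on 4 hypothalamic nuclei taken by laser-capture microdissection from wild-type male C57/BL6 mice, a group that carried no transgene or deletion. They were the paraventricular (PVN), arcuate (ARC), dorsomedial (DMH) and ventromedial (VMH) nuclei, taken from mice that had free access to food or that had gone 24 hours without it before dissection. There were 42 libraries, of which 5 fed and 5 fasted came from the ARC, 6 and 6 from the VMH, 5 and 4 from the DMH, and 6 and 5 from the PVN. The methods describe capture of several nuclei from the sections of a brain, but the labels do not tie libraries to mice, so libraries were treated as independent and p-values measured the spread between these libraries.

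Microglia are the resident macrophages of the brain. They depend on signals through the CSF1 receptor, sense neuronal fractalkine through CX3CR1 and extend processes towards ATP and ADP through P2RY12, and they are the main source of the complement component C1q in brain tissue. In the hypothalamus they are known to respond to changes in diet. A dissected nucleus is a mixture of neurons, glia and vessels, so fewer microglia and less RNA per microglial cell cannot be told apart in these values.

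The dissection could be read from nucleus markers. Agrp, a peptide of feeding neurons, averaged 271 ± 164 RPKM (SD, n = 10) in the ARC and between 3.41 and 4.56 RPKM in the other nuclei. Nr5a1 marked the VMH with 22.5 ± 7.68 RPKM (n = 12), Oxt was at 4190 ± 846 RPKM (n = 11) in the PVN, and Hcrt, which marks the orexin neurons beside the DMH, was at 172 ± 121 RPKM (n = 9) in the DMH. Each of the 9 microglia genes averaged above its no-read level, the value listed for a gene without reads, in all 4 nuclei. Few reads are enough for that, and estimated reads are given below. Estimated depth ranged from 1.33 to 13.2 M reads, and fasted DMH libraries (7.38 ± 4.0 M, n = 4) were deeper than fed ones (3.91 ± 0.862 M, n = 5).

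The 3 chains of C1q lie next to each other on the minus strand of chromosome 4 (GRCm38), in a stretch of 18675 bases. C1qb occupied 136880129 to 136886187, C1qc 136889804 to 136893065 and C1qa 136895917 to 136898803. Each gene encodes a chain of the same secreted molecule, whose globular heads recognise immune complexes and tagged synapses. The 250 bases before the start of C1qb and of C1qc, as RefSeq places it on GRCm38.p6, are shown because the results below turn on this cluster, together with those of Trem2. The C1qc stretch begins at 136892915, inside the gene as given above, so part of it lies within the gene by GENCODE. Capitals mark matches to GAGGAAG, a pattern bound by PU.1 and other ETS factors, read here on the opposite strand as CTTCCTC.
C1qb, chr4:136886201-136886450, minus strand: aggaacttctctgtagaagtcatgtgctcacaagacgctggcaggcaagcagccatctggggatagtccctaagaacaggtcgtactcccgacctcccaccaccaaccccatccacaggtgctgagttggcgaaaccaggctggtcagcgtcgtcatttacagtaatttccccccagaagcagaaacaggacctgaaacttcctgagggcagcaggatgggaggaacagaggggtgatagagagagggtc
C1qc, chr4:136892915-136893164, minus strand: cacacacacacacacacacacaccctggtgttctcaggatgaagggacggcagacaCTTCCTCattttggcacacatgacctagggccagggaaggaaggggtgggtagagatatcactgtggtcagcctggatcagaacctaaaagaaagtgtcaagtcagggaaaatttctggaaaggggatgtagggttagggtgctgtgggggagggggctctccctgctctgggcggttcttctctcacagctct
Trem2, chr17:48346151-48346400, plus strand: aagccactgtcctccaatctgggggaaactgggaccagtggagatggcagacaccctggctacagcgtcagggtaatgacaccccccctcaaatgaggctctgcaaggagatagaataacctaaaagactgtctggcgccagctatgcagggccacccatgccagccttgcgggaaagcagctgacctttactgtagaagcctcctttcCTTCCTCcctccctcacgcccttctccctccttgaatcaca

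Promoters were matched by RefSeq start for 6 of the 9 genes, namely Cx3cr1, P2ry12, Aif1, Trem2, C1qb and C1qc. That of Cx3cr1, and parts of those of Aif1 and C1qc, lie inside the gene as GENCODE places it. In either orientation, GAGGAAG was present in 2 of these 6 (Trem2 and C1qc) and in 10.6% of 32851 mouse promoters of the same length. The C1qc match lay 188 to 194 bases before its RefSeq start, and the Trem2 match 35 to 41 bases before its own. C1qb held no GAGGAAG, although it sits beside C1qc, and shorter or variant ETS patterns were not searched. GAAANNGAA, an interferon regulatory factor pattern, was present in Aif1 alone of the 6 and in 7.13% of promoters. TGACTCA, the AP-1 pattern, and TATAAA were in 0 of the 6, with 4.46% and 12.4% of all promoters holding them. These are matches of letters and say nothing of binding.

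C1qb was the highest of the 9 genes when RPKM, which is scaled to gene length, was averaged over the 42 libraries. It stood at 22.7 ± 7.10 RPKM (SD), above 92.3% of the genes tested. Below it came C1qc at 10.8 ± 4.28 RPKM, Csf1r at 8.32 ± 1.77, Cx3cr1 at 7.02 ± 2.70 and P2ry12 at 6.27 ± 2.89. C1qa at 5.61 ± 3.57, Tmem119 at 4.41 ± 2.32 and Aif1 at 3.98 ± 2.85 RPKM followed. Trem2, the lipid-sensing receptor of microglia, was the lowest at 1.12 ± 0.612 RPKM, above 10.6% of the genes tested. Neighbours from Csf1r to Aif1 in this order differed by less than the SD of either of them.

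Few reads stood behind several of these values. The deposited values include a small count added by the authors, 5 reads in the mean library, so a gene with no reads is listed above 0. The level of such a gene had a median of 1.60 RPKM over 21975 genes whose lowest value recurred among libraries. This is above the filter of 1 RPKM, so genes with few or no reads are among those tested. They enter the shares of genes below C1qb and Trem2, which are not ranks by reads, and the background shares of calls. For C1qa that no-read level was 1.05 RPKM, and 6 of the 42 libraries lay under 2 times it. For Aif1 it was 0.715 RPKM with 7 such libraries, and for Trem2 0.221 RPKM with 3. Median estimated reads per library were 205 for Csf1r, 128 for Cx3cr1, 93.5 for C1qb, 93.2 for C1qc, 65.1 for P2ry12, 38.2 for Tmem119, 17.5 for Aif1, 17.0 for C1qa and 16.4 for Trem2. Changes on the log2(RPKM + 1) scale used for every test understate those of the lowest genes.

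**Figure D1:**
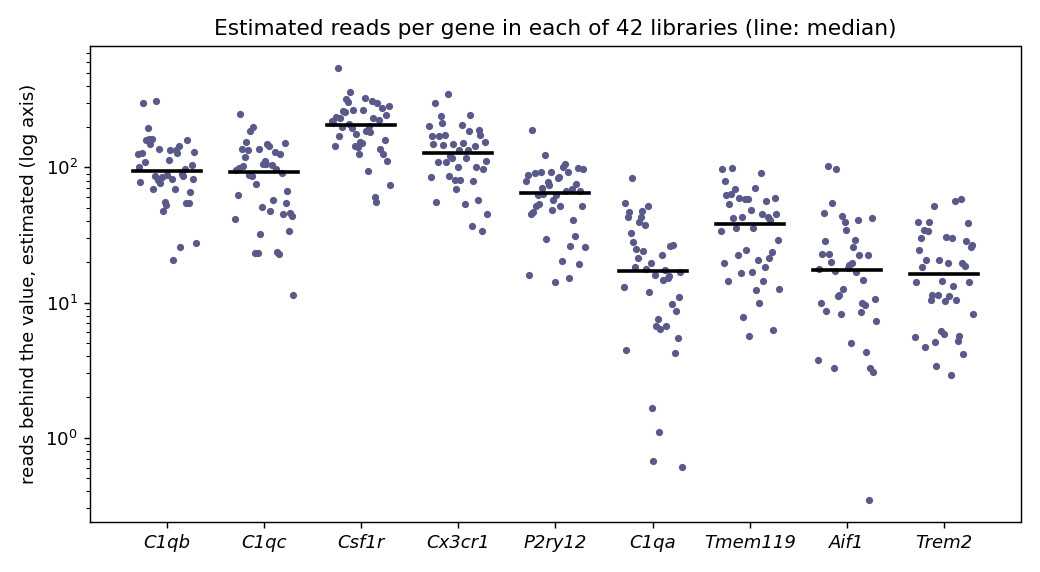
Estimated reads behind the value of each gene (log axis) in each of the 42 libraries, with black lines at the medians. Csf1r has a median of 205 reads and Trem2 16.4, and C1qa and Aif1 reach down to about 1 read or less in single libraries.

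The first comparison asked whether fasting altered these genes within a nucleus. None of the 9 passed the threshold of an adjusted p under 0.1 (limma, adjusted over all 33579 genes) in any nucleus. Over all genes tested, the same threshold was passed by 0.0566% (ARC), 0.131% (VMH), 0.0238% (DMH) and 0.0715% (PVN), so 0 of 9 lies close to the background. At an unadjusted p under 0.05, 1 of 36 tests passed, Trem2 in the VMH, where 7.31% of all genes did so. The corresponding shares were 7.5% in the ARC, 6.48% in the DMH and 5.53% in the PVN, with 0 of the 9 members in each. In no nucleus did all fasted values of a member lie on the same side of all fed values, against 0.742% of genes (ARC), 0.277% (VMH), 1.15% (DMH) and 0.402% (PVN).

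**Figure D2:**
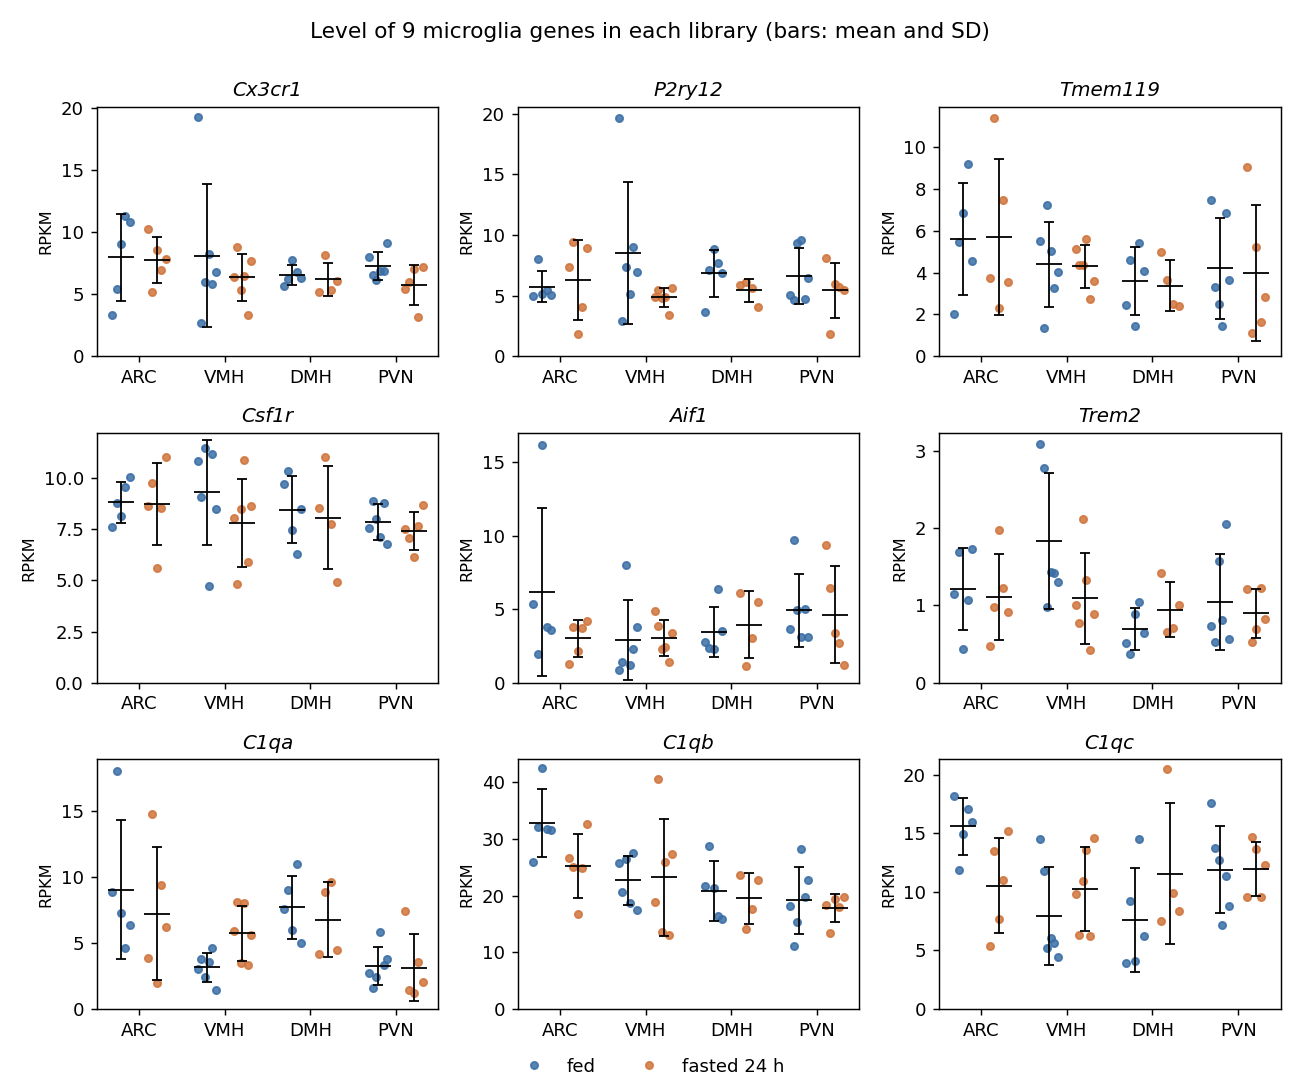
RPKM of each gene in each library by nucleus and nutritional state, with the mean and SD of each group in black. Fed and fasted libraries overlap in every panel, and a fed VMH library stands high for Cx3cr1 (19.2 RPKM) and P2ry12 (19.7 RPKM).

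Cx3cr1 (chromosome 9, 119901616 to 120069879, minus strand), the fractalkine receptor, was at 3.29, 5.39, 9.06, 11.3 and 10.8 RPKM in fed ARC libraries and at 10.2, 5.17, 8.58, 6.92 and 7.85 in fasted ones. The 2 groups covered much the same range. In the VMH, fed libraries ran from 2.67 through a median of 6.35 to 19.2 RPKM, and fasted ones from 3.32 through 6.44 to 8.81. The DMH held 5.66, 6.20, 7.78, 6.76 and 6.32 RPKM in fed and 5.18, 8.13, 5.33 and 6.08 in fasted mice. Fasted PVN libraries were at 5.45, 5.98, 6.98, 3.17 and 7.15 RPKM, and fed ones ran from 6.13 to 9.14 around 6.86. The log2 change was largest there, at −0.32 (SE 0.28), with a 95% interval from −0.88 to 0.24 that held 0, and it was −0.16 without the fasted library at 3.17 RPKM. Its exons shared 1.73% of their length with another gene.

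P2ry12 (chromosome 3, 59216272 to 59262871, minus strand), the ADP receptor that marks resting microglia, was between 2.88 and 19.7 RPKM in fed VMH libraries around a median of 7.16, and between 3.40 and 5.67 around 4.90 in fasted ones. The fasted values all fell inside the fed range. The log2 change was −0.52 (SE 0.30), with an interval from −1.14 to 0.10, and −0.26 without the fed library at 19.7 RPKM. In the ARC the fed libraries held 4.98, 8.05, 5.14, 5.49 and 5.06 RPKM, and the fasted ones 7.34, 9.41, 1.80, 4.06 and 8.96. Fasted ARC libraries were thus more spread than fed ones around nearly the same mean (6.31 and 5.75 RPKM). The DMH held 3.67, 7.13, 8.85, 7.67 and 6.90 RPKM in fed and 5.89, 6.09, 5.66 and 4.09 in fasted mice. In the PVN the fasted values were 8.14, 1.86, 6.0, 5.76 and 5.44 RPKM, and the fed ones ran from 4.68 to 9.60.

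Tmem119 (chromosome 5, 113793729 to 113800516, minus strand), a membrane protein used to tell microglia from incoming macrophages, varied widely within groups. Fed ARC libraries were at 2.02, 5.44, 6.82, 9.19 and 4.54 RPKM, and fasted ones at 3.73, 11.4, 2.33, 7.47 and 3.54. Its log2 changes were −0.04 (ARC, SE 0.40), 0.05 (VMH, SE 0.37), −0.03 (DMH, SE 0.43) and −0.17 (PVN, SE 0.39). The intervals reached from −0.95 to 0.84 over the 4 nuclei. PVN values ran from 1.10 to 9.02 RPKM in fasted libraries alone.

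Csf1r (chromosome 18, 61100598 to 61132149, plus strand), the receptor for CSF1 and IL-34 on which microglial survival depends, was the steadiest of the 9. Its group means lay between 7.43 and 9.31 RPKM, and its log2 SD within groups was 0.30. The changes on fasting were −0.04 (ARC), −0.22 (VMH), −0.09 (DMH) and −0.07 (PVN). All 4 intervals lay between −0.57 and 0.35. Its exons overlapped another gene over 15.1% of their length, so without strand information its value is uncertain.

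Aif1 (chromosome 17, 35170991 to 35176068, minus strand), which encodes the IBA1 protein stained to show microglia, was at 5.36, 1.92, 16.2, 3.76 and 3.60 RPKM in fed ARC libraries and at 1.26, 3.76, 2.14, 3.72 and 4.17 in fasted ones. The fed mean of 6.16 RPKM was carried by the library at 16.2. The log2 change there was −0.62 (SE 0.44), the lowest of the 36 fasting values, its interval ran from −1.51 to 0.28, and it was −0.23 without that library. The VMH change was 0.21 (SE 0.40), that in the DMH 0.08 (SE 0.47) and that in the PVN −0.19 (SE 0.42). Within groups Aif1 had a log2 SD of 0.70, larger than that of 97.7% of genes at a like level.

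Trem2 (chromosome 17, 48346401 to 48354147, plus strand) ran from 0.983 through a median of 1.43 to 3.10 RPKM in fed VMH libraries and from 0.426 through 0.948 to 2.12 in fasted ones. The ranges overlapped, with 2 fed libraries above all the fasted ones. The log2 change was −0.43 (SE 0.20, 95% interval −0.84 to −0.02), with adjusted p = 0.617 (limma). Libraries fell into 3 sets by the recurring low values that they shared, taken here as inferred batches. Within them the VMH change was −1.06, 0.30 and −0.52 with 2 fed and 2 fasted libraries each, so it pointed downward in 2 of them. In the other nuclei the change was −0.07 in the ARC, 0.20 in the DMH and −0.07 in the PVN.

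C1qa moved the other way in the VMH. Fed libraries ran from 1.43 through a median of 3.29 to 4.63 RPKM, and fasted ones from 3.33 through 5.76 to 8.10. Of the fed libraries, 3 reached into the fasted range. The log2 change was 0.69 (SE 0.35, 95% interval −0.01 to 1.39), which did not pass (adjusted p = 0.617, limma). It was 0.85, 0.69 and 0.53 within the 3 batches. The change was −0.39 (SE 0.38) in the ARC, where fed values were 8.85, 18.0, 7.30, 4.65 and 6.35 RPKM and fasted values 3.83, 14.8, 1.99, 9.37 and 6.20. The highest library was at 18.0 RPKM among fed and 14.8 among fasted mice, and the groups overlapped. With single libraries left out this change ran from −0.68 (without fasted library 2, at 14.8 RPKM) to −0.08 (without fasted library 3, at 1.99 RPKM), and it was −0.25 without fasted library 1 and −0.12 without fed library 2.

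C1qb was at 26.0, 32.2, 42.5, 31.8 and 31.5 RPKM in fed ARC libraries and at 26.6, 25.1, 16.8, 24.9 and 32.6 in fasted ones. The fasted values were mostly lower but overlapped the fed ones, and the log2 change was −0.38 (SE 0.24, 95% interval −0.86 to 0.10), or −0.25 without the fasted library at 16.8 RPKM. It was −0.06 (VMH), −0.08 (DMH) and −0.06 (PVN), each with an SE of at most 0.25. C1qc in the ARC was at 18.2, 11.8, 15.0, 17.1 and 16.0 RPKM in fed and at 5.34, 13.4, 7.68, 11 and 15.2 in fasted libraries, a log2 change of −0.59 (SE 0.32). In the DMH it went from 3.94, 9.22, 4.07, 14.5 and 6.25 RPKM fed to 7.47, 20.4, 9.86 and 8.39 fasted, a change of 0.58 (SE 0.34), or 0.29 without the fasted library at 20.4 RPKM. Neither passed the threshold, and the test of whether the fasting change of C1qc differed between nuclei gave an unadjusted p of 0.0685 and an adjusted p of 1 (limma).

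**Figure D3:**
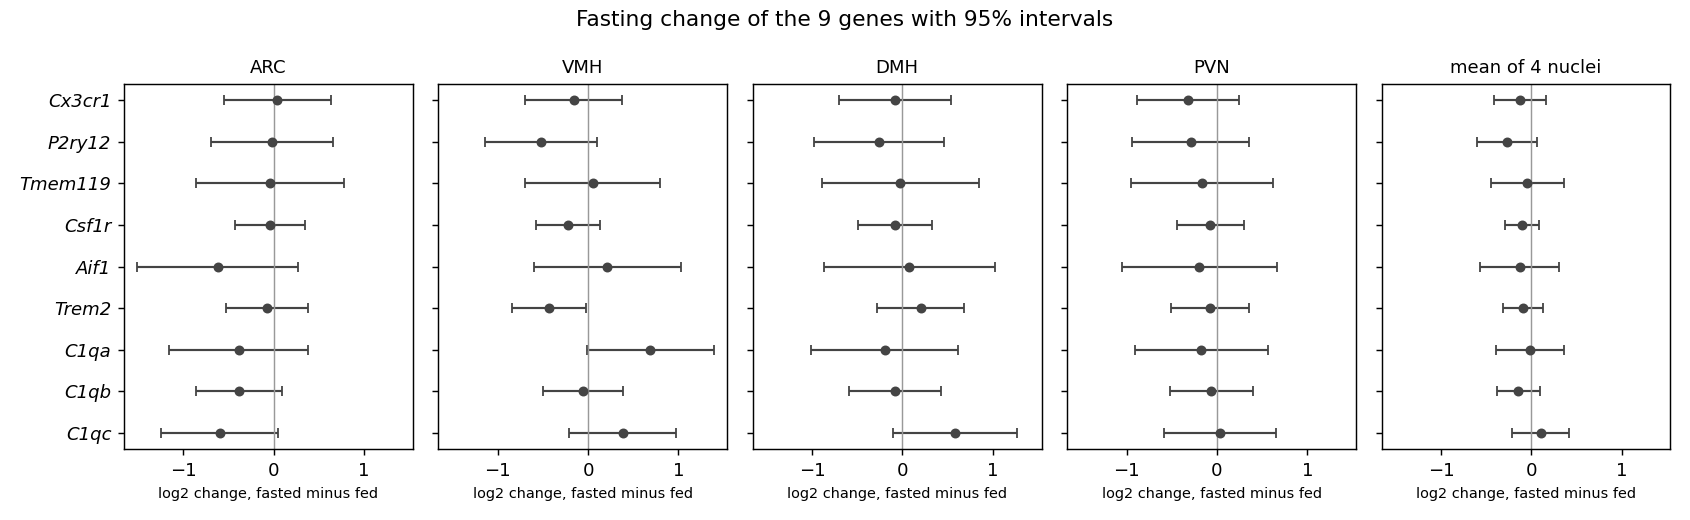
Log2 change (fasted minus fed, log2(RPKM + 1)) of each gene in each nucleus and in the mean of the 4, with 95% intervals from limma. All intervals but that of Trem2 in the VMH (−0.84 to −0.02) cross 0, and none passed the adjusted threshold.

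Averaged over the 4 nuclei, the fasting changes were small, and 0 of 9 passed where 0.5% of all genes did at the adjusted and 7.14% at the unadjusted threshold. P2ry12 had the largest, at −0.27 (SE 0.16, 95% interval −0.60 to 0.06). Csf1r was at −0.10 (SE 0.09), C1qb at −0.15 (SE 0.12), Aif1 at −0.13 (SE 0.22), Cx3cr1 at −0.13 (SE 0.14) and Trem2 at −0.09 (SE 0.11). C1qa at −0.02 (SE 0.19) and Tmem119 at −0.05 (SE 0.20) lay nearest to 0, and C1qc at 0.10 (SE 0.16) was the single value above 0. The median of the 9 was −0.10, beside −0.01 over the genes with reads in every library. The response to fasting did not pass a test of difference between nuclei for any member (0.00596% of genes passed the adjusted and 4.39% the unadjusted threshold, with 0 members in each).

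The second comparison asked whether the nuclei differed, over both nutritional states. C1qa and C1qb passed the test over 4 nuclei (adjusted p = 0.00488 and 0.0301, limma F test), so 2 of 9 members did so where 18.7% of all genes passed. The other members did not, with adjusted p from 0.203 for C1qc to 1 for P2ry12 (limma). C1qc passed as well, making 3 of 9, with array weights and without fasted DMH library 2, fed DMH library 4 or fed VMH library 1, and its adjusted p ran from 0.0738 to 0.305 over all settings (limma). C1qa in the ARC ran from 1.99 through a median of 6.82 to 18.0 RPKM (n = 10), and in the DMH from 4.15 through 7.55 to 11 (n = 9). In the VMH it ran from 1.43 through 3.64 to 8.10 (n = 12), and in the PVN from 1.2 through 2.71 to 7.44 (n = 11). The ARC and DMH were thus the high nuclei for C1qa and the PVN the lowest, with overlapping ranges.

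C1qa was higher in the ARC than in the PVN by 1.06 (SE 0.26) on the log2 scale (adjusted p = 0.00745) and higher in the DMH than in the PVN by 1.03 (SE 0.27, adjusted p = 0.0155, both limma). The ARC and DMH were not told apart (0.02, SE 0.28, 95% interval −0.54 to 0.58). The ARC minus PVN difference was 1.16 among fed and 0.95 among fasted libraries, and 0.67, 1.47 and 0.86 within the 3 batches. That of the DMH was 1.05 among fed and 1.02 among fasted libraries. Across 55 other settings, left-out libraries included, ARC minus PVN ran from 0.63 to 1.29 and passed in all of them.

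C1qb in the ARC ran from 16.8 through 29.1 to 42.5 RPKM and in the PVN from 11.1 through 18.3 to 28.2. The medians of the VMH and DMH, at 23.2 and 21.4 RPKM, lay between them. The ARC exceeded the PVN by 0.62 (SE 0.16, adjusted p = 0.0131, limma), and did so by 0.73, 0.56 and 0.56 within batches. The ARC minus DMH difference of 0.50 (SE 0.17) missed the threshold at adjusted p = 0.109. C1qc was at similar mean levels in the ARC (13.1 ± 4.13 RPKM) and PVN (11.9 ± 3.02), and their difference was 0.09 with an interval from −0.36 to 0.54. That difference was 0.40 among fed and −0.23 among fasted libraries. Whether it differed from that of C1qb was not tested. The median ratio of C1qc to C1qa in RPKM was 2.05 (ARC), 2.0 (VMH), 1.26 (DMH) and 5.25 (PVN), with SDs of the log2 ratio of 0.84, 0.71, 0.70 and 1.13. C1qa in the PVN lay near its no-read level of 1.05 RPKM, so these ratios are not plain folds and were not tested.

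Members past the adjusted threshold numbered 0 in ARC minus VMH, beside 13.4% of all genes, 0 in ARC minus DMH (5.75%) and 2 in ARC minus PVN (7.4%). They numbered 0 in VMH minus DMH (7.77%), 0 in VMH minus PVN (14.9%) and 1 in DMH minus PVN (6.45%). Receptor genes gave no call. Csf1r differed between any pair of nuclei by at most 0.17, and P2ry12 by between −0.08 and 0.07. Trem2 was highest in the VMH (1.46 ± 0.809 RPKM) and lowest in the DMH (0.805 ± 0.318), a difference of 0.39 (SE 0.15) that did not pass (adjusted p = 0.165, limma).

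**Figure D4:**
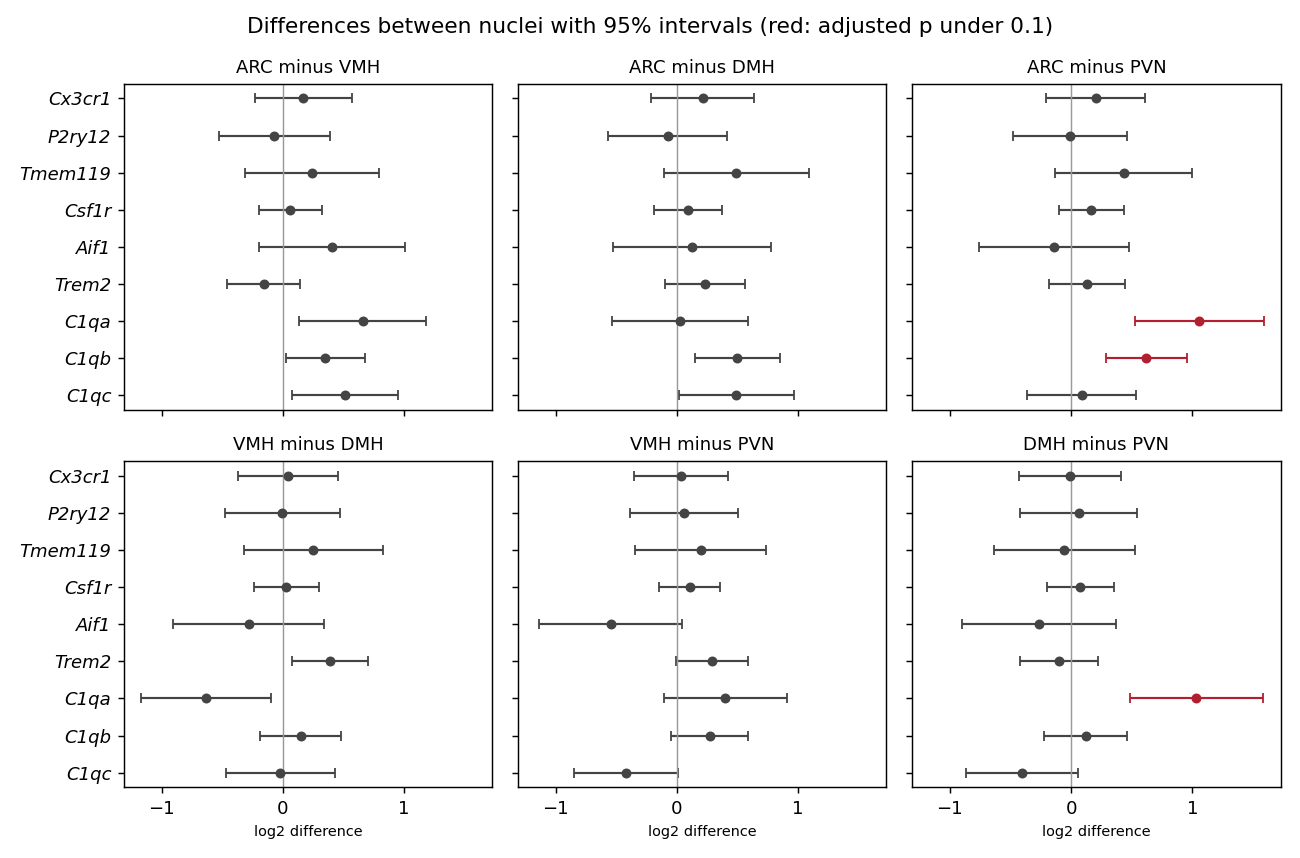
Log2 differences of each gene between pairs of nuclei over both nutritional states, with 95% intervals from limma and red points where the adjusted p was under 0.1. The red points are C1qa (1.06) and C1qb (0.62) in ARC minus PVN and C1qa (1.03) in DMH minus PVN.

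Markers of other cells also differed between the ARC and PVN. Of 6 endothelial genes, 5 were lower in the ARC, including Flt1 at 3.78 ± 1.24 RPKM in the ARC and 10.1 ± 2.25 in the PVN. Their summed level was 14.9 to 24.0 RPKM in the ARC and 47.0 to 66.9 in the PVN. Of 10 blood cell genes, Hbb-bs and Hbb-bt were lower in the ARC, and the list summed to 25.7 to 44.4 RPKM there and 25.1 to 80.8 in the PVN. Of 8 tested perivascular macrophage genes, Lyve1 alone differed, at 0.604 ± 0.271 RPKM in the ARC and 1.66 ± 1.67 in the PVN, and the 9 listed genes summed to 6.12 to 9.81 RPKM in the ARC and 5.31 to 13.4 in the PVN. Of 6 neuron genes, 4 were lower in the ARC and Syt1 was higher, and of 6 astrocyte genes Aqp4 was higher and 2 were lower. Of 6 tanycyte and ependymal genes, Col23a1 and Crym were higher in the ARC, the same direction as C1qa and C1qb, and that list summed to 14.6 to 37.3 RPKM there and 7.26 to 27.3 in the PVN. Of 6 oligodendrocyte genes 0 differed between ARC and PVN, but Mbp and Mobp were among those higher in the DMH than in the PVN, as C1qa was. The part of these other cells in the C1q differences was not tested.

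Other genes known from microglia were taken as a list of 28, of which 26 were tested. Ctss, the lysosomal protease cathepsin S, was at 40.5 ± 6.31 RPKM (ARC), 27.3 ± 5.57 (VMH), 26.2 ± 6.39 (DMH) and 19.4 ± 3.80 (PVN). Its ARC minus PVN difference was 1.05 (SE 0.10, adjusted p = 1.65e-09, limma). In that comparison 6 of 26 passed, among them Ctss, Itgam, Olfml3 and Cd68, which were higher in the ARC, and Rgs10, which was lower. Exons of Itgam overlap Gm49368 over 68.7% of their length, which leaves its value uncertain. In DMH minus PVN 1 of 26 passed, which was Ctss (0.41, SE 0.11).

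On fasting, Ctss was the single gene of the 26 to pass, in the mean of the nuclei, where it fell by 0.28 (SE 0.07) at an adjusted p of 0.0997 (limma). Its group means went from 45.5 to 35.5 RPKM (ARC), from 31.0 to 23.6 (VMH), from 27.9 to 24.0 (DMH) and from 20.9 to 17.6 (PVN). Nuclei of a shared mouse entered this mean as independent libraries, so its p-value may be too small. That call was marginal. It held in 7 of 12 other settings and in 11 of 42 fits that left out a library, with adjusted p from 0.0135 to 0.173 in the latter. Fcer1g, an Fc receptor chain, had a value of −0.66 (SE 0.18, adjusted p = 0.143), Olfml3 of −0.40 (SE 0.15) and Fcrls of −0.36 (SE 0.15). In single nuclei, 0 of the 26 passed.

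Partners of the receptors were taken as a list of 10, and 0 passed on fasting. Tgfbr1 was at 0.19 (SE 0.09), Tyrobp, the adaptor through which TREM2 signals, at −0.39 (SE 0.18), Plcg2 at −0.20 (SE 0.10) and Csf1 at 0.15 (SE 0.12) in the mean of the nuclei. Ligands of these receptors differed between the ARC and VMH. Cx3cl1, the fractalkine bound by CX3CR1, was at 49.3 ± 7.54 RPKM in the VMH and 29.9 ± 4.67 in the ARC, and Il34, a ligand of CSF1R, at 10.8 ± 3.17 and 4.33 ± 2.21. ARC minus VMH was −0.70 (SE 0.08, adjusted p = 1.66e-08) for Cx3cl1 and −1.18 (SE 0.20, adjusted p = 4.36e-05) for Il34, while Csf1 was higher in the ARC by 0.86 (SE 0.16, adjusted p = 0.000149, all limma). All 6 neuron genes were also lower in the ARC than in the VMH, with a summed level of 516 to 669 RPKM in the ARC and 1164 to 1544 in the VMH, and so were all 6 oligodendrocyte genes. Their part in the ligand differences was not tested. Cx3cr1 and Csf1r did not pass between those nuclei (0.17 and 0.06), and whether ligand and receptor differed from each other was not tested.

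Lists of complement genes (11 tested of 12), reactive microglia genes (10 of 12), inflammatory genes (13 of 14) and perivascular macrophage genes (8 of 9) each held 0 genes past the threshold in the mean fasting change and in any single nucleus. The complement genes with the smallest p were C2 at 0.24 (SE 0.12), Serping1 at −0.35 (SE 0.17), Cd59a at 0.26 (SE 0.13) and Itgam at −0.18 (SE 0.15). Among reactive genes Lpl was at 0.14 (SE 0.06), Gpnmb at 0.15 (SE 0.10), Axl at −0.15 (SE 0.11) and Spp1 at 0.26 (SE 0.23). Socs3, the cytokine feedback inhibitor, was at −0.37 (SE 0.10, adjusted p = 0.148, limma), and Nfkbia was at 0.38 (SE 0.18), Cxcl10 at −0.12 (SE 0.06) and Ccl2 at 0.08 (SE 0.07). The mean of Ccl2 was the same 0.963 RPKM in fed VMH, fasted VMH and fed PVN libraries. That of Cxcl10 was the same 0.721 RPKM in fasted VMH and fed PVN libraries. The added count alone would give such equal means, so genes like these could hardly pass, and their lack of calls is no measure of their response. F13a1 at −0.21 (SE 0.11), Cd163 at 0.12 (SE 0.07), Ms4a7 at 0.09 (SE 0.07) and Pf4 at −0.07 (SE 0.10) came first among perivascular macrophage genes. List medians were 0.01, 0.05, −0.02 and −0.01, beside −0.01 over the genes with reads in every library.

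The 9 genes did not move closely together from library to library. Over 36 pairs of members and 42 libraries, the median Pearson r of log2(RPKM + 1) was 0.14 (from −0.24 for Aif1 and Trem2 to 0.46 for C1qa and C1qb). With group means removed it was 0.12, and 25 of 36 pairs were above 0. C1qb and C1qc, 3616 bases apart, had an r of 0.01. These libraries share the amplification and differ in depth.

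**Figure D5:**
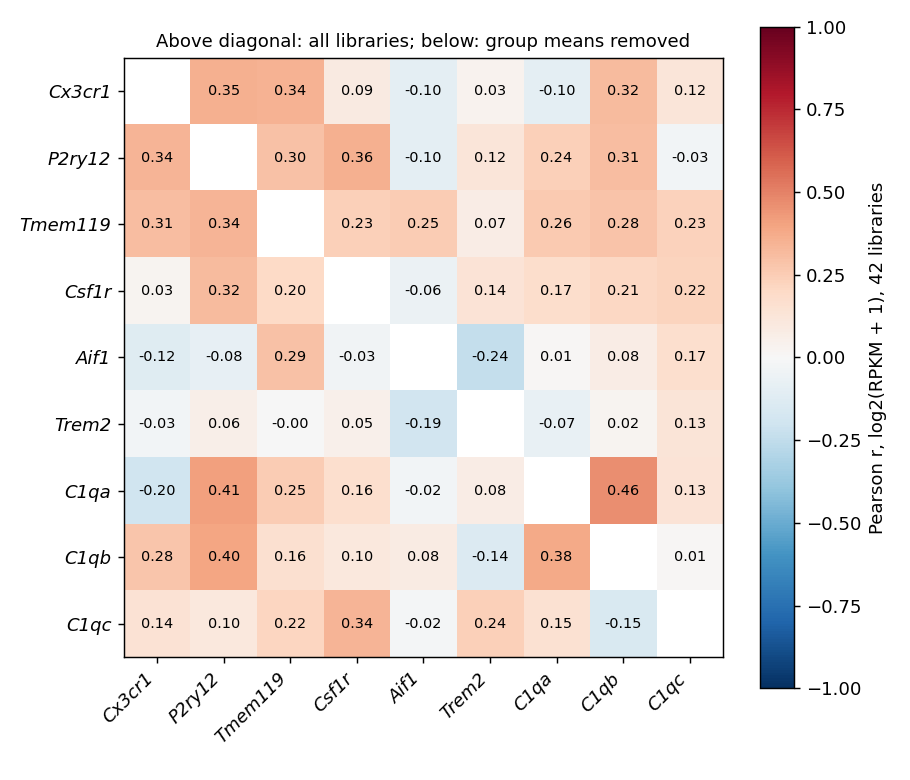
Pearson r between members over 42 libraries, with all libraries above the diagonal and with group means removed below it. The highest value is 0.46 (C1qa and C1qb) and most are between −0.1 and 0.4.

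Among 19049 genes with a mean of at least 3 RPKM, the 10 whose pattern was most like the mean of the standardised members were Igsf1 (r = 0.63), Rtraf (0.59), S100a6 (0.58), Eif3k (0.56), Itgam (0.54), Gstm6 (0.54), Gm15295 (0.54), Clock (0.53), Gm25777 (0.52) and Stat3 (0.52), over 42 libraries. The 99th percentile of all of them was 0.40. Itgam was the single gene of the 10 in any list of microglial or macrophage genes, and 68.7% of its exon length overlaps Gm49368, so its value is uncertain without strand information. With group means removed their r ran from 0.36 for Itgam to 0.57 for Igsf1, and 0 of the 10 were among the 10 highest. The 15 other microglia genes compared had a median r of 0.23.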

How the data were processed

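RNA from laser-captured nuclei was amplified and sequenced without strand information. The authors deposited RPKM values for each library, and the submitters' processing notes name CASAVA 1.7, TopHat2 2.0.11, Cufflinks 2.2.1, edgeR and limma with GRCm38. Per the study's methods, outlier samples were removed on a multidimensional scaling plot. Recurring lowest values showed an added count (a mean of 5 reads) and 3 sets of libraries of 10, 16 and 16, taken as inferred batches whose means had been removed. Groups were uneven across them, and batch 1 held 1 fed and 0 fasted DMH libraries beside 2 fed and 2 fasted VMH libraries. What the removal of batch means did to differences between groups was not tested. Between 97.9% and 98.9% of low values lay within 0.05 of a whole number of reads above the lowest, which gave depth. Reads per gene were estimated with GENCODE M21 exon lengths and are approximate.

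Values were tested as log2(RPKM + 1) with limma 3.58.1 (R 4.3.3) over 33579 genes, with a mean for each of 8 groups, an intensity trend, two-sided tests and Benjamini-Hochberg adjustment at 0.1. On simulated data of 33579 genes, 200 of them changed, the fit was tested first. Python 3.11.15, pandas 2.3.3 and numpy 2.4.6 did the rest. The members and lists were chosen with earlier results of these data known. Of each other list, genes past the threshold in a fasting comparison were named, and otherwise up to 4 by smallest p in the mean of the nuclei. Genes named for differences between nuclei were chosen after their values were seen. Some genes of the lists are not reported here by name. Alternatives covered the pseudocount, filter, scaling, spread, covariates, replicate block and left-out libraries.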

Additional observations from a re-analysis of the deposited data

Results flagged for a closer look

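In 6 of 72 groups of libraries (9 genes in 8 groups), 1 library stood apart from the others of its group by Dixon's test, where chance gives about 1 in 20, or 3.6. Cx3cr1 was at 19.2 RPKM in fed VMH library 1, and the other 5 ran from 2.67 to 8.19. P2ry12 was at 19.7 RPKM in the same library, with the others from 2.88 to 9.02, and Trem2 was highest there as well (3.10 RPKM). Aif1 went the other way in that library, at 0.826 RPKM the lowest of all 42 and near its no-read level of 0.715 RPKM. The estimated depth of that library was 2.02 M reads. Fed ARC library 2 held P2ry12 at 8.05 RPKM beside 4.98 to 5.49. Fed ARC library 3 held Aif1 at 16.2 RPKM beside 1.92 to 5.36, and fed PVN library 2 held it at 9.71 beside 3.12 to 5.02. Fasted PVN library 2 was low for C1qb at 13.5 RPKM, with the others from 18.0 to 19.8.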

How the results depend on the processing

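The number of members changed by fasting was 0 in each nucleus and in the mean under every alternative run, and C1qa and C1qb stayed past the threshold in ARC minus PVN, and C1qa in DMH minus PVN, in all of them. Counts of other pairs moved from 0. ARC minus VMH gave 1 with a pseudocount of 5 (C1qa), 1 with a filter of mean RPKM of at least 3 (C1qa) and 3 with array weights (C1qa, C1qb, C1qc). ARC minus DMH gave 1 (C1qb) with that filter, array weights, the nuclei's own libraries or depth as a covariate, and VMH minus DMH gave 1 (C1qa) with own libraries. Leaving out 1 library gave 0 to 2 in ARC minus VMH, 0 to 1 in ARC minus DMH and 0 to 1 in VMH minus DMH (Trem2, without fasted VMH replicate 5). The highest r of a gene like the members was 0.71 with group means removed. Same-numbered libraries did not deviate together (median r of -0.05 to -0.04), and with a replicate block, fixed or random, 0 members changed on fasting in each nucleus and 2 differed in ARC minus PVN. The block changed no call. Fasted ARC library 1 was in inferred batch 1 and fasted DMH library 1 in inferred batch 2, so the numbers cannot be taken to name mice. The fixed block also joined fed and fasted libraries of the same number. These checks therefore say nothing of nuclei that share a mouse.

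Values near 0 changed sign without changing any call. With array weights these were fasting in the ARC for Cx3cr1 (-0.10), P2ry12 (0.00881) and Tmem119 (0.041), and in the VMH for Tmem119 (-0.051) and Aif1 (-0.13). Others were P2ry12 in the ARC with a pseudocount of 5 (0.027), Tmem119 in the DMH with depth as a covariate (0.063), and C1qc in VMH minus DMH with depth (0.0060) or a fixed replicate block (0.016). Leaving out 1 library gave ARC ranges of -0.20 to 0.18 for Cx3cr1, -0.18 to 0.29 for P2ry12, -0.30 to 0.17 for Tmem119, -0.12 to 0.10 for Csf1r and -0.22 to 0.049 for Trem2. VMH ranges were -0.38 to 0.11 for Cx3cr1, -0.17 to 0.19 for Tmem119 and -0.23 to 0.079 for C1qb. DMH ranges were -0.23 to 0.12 for Tmem119, -0.24 to 0.10 for Csf1r, -0.14 to 0.43 for Aif1 and -0.18 to 0.057 for C1qb. PVN ranges were -0.48 to 0.083 for Tmem119, -0.47 to 0.093 for Aif1, -0.15 to 0.052 for Trem2, -0.48 to 0.0078 for C1qa, -0.20 to 0.057 for C1qb and -0.086 to 0.15 for C1qc. In the mean of the nuclei they were -0.12 to 0.017 for Tmem119 and -0.092 to 0.061 for C1qa. C1qa in ARC minus DMH ran from -0.12 to 0.18, and C1qc in VMH minus DMH from -0.11 to 0.13. The cause was not tested.

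Over all genes, counts past the threshold across settings ran from 0 to 40 for fasting in the ARC, 1 to 57 in the VMH, 0 to 56 in the DMH and 3 to 141 in the PVN. The planned median-ratio scaling gave factors of 1, and a version over 10910 genes with reads, chosen after seeing the data, gave 11454 calls in VMH minus PVN against 5015. Trem2 gave no value with a mean RPKM of at least 3, which removed it, and the tests over several nuclei had no fit on own libraries. Depth limits C1qa, Aif1 and Trem2 most.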

Other observations

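Fasted VMH library 5 was below its group mean for all 9 members, while the other 41 libraries had between 1 and 8 members above theirs. Its estimated depth was 4.13 M reads. Among the lists of other cell types, Aqp4, the water channel of astrocytes, fell on fasting by 0.94 (SE 0.19, adjusted p = 0.0477, limma) in the VMH and by 0.59 (SE 0.10, adjusted p = 0.00131, limma) in the mean of the nuclei. The VMH call held in 12 of 13 other settings and was lost in a fit on the VMH libraries alone (adjusted p = 0.369, limma). With each library left out in turn, it held in 41 of 42 fits and was lost without fed VMH library 1 (adjusted p = 0.114, limma), and the call in the mean held in all 42. That mean counts nuclei of a shared mouse as independent libraries, so its p-value may be too small. Of the neuron (6), oligodendrocyte (6), endothelial (6), tanycyte and ependymal (6) and blood cell (10) genes, 0 passed on fasting in any nucleus or in the mean, where Stmn2 was at −0.17 (SE 0.05), Mag at −0.72 (SE 0.23), Kdr at −0.29 (SE 0.11), Foxj1 at −0.29 (SE 0.15) and Alas2 at 0.27 (SE 0.14). Agrp rose in the ARC from 133 to 409 RPKM, and Ppp1r17 rose in the PVN from 18.9 to 47.3 RPKM, both past the adjusted threshold. Npy went from 345 to 913 RPKM in the ARC but passed in no fasting comparison. The paper reports that Npy increased with fasting in the ARC, so the lack of a call in this fit does not show a lack of change.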
